A study of Saccharomyces cerevisiae with 18 samples.

Results

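The phosphate starvation genes of budding yeast are described here through 10 members chosen by name: *PHO84*, *PHO89*, *PHO5*, *PHO8*, *PHO11*, *PHO12*, *SPL2*, *VTC1*, *VTC3* and *VTC4*. All 10 were found among the 7126 genes of the count table, and all 10 passed the low-count filter that left 6239 genes for testing. These genes are targets of the PHO pathway. In it the transcription factor Pho4 enters the nucleus when inorganic phosphate is scarce, and binds promoters with Pho2. When phosphate is plentiful, the cyclin-dependent kinase Pho85 with its cyclin Pho80 phosphorylates Pho4 and keeps it out of the nucleus, and the inhibitor Pho81 relieves that block on starvation. The products take up phosphate (Pho84, Pho89), release it from organic esters (Pho5, Pho8, Pho11, Pho12), store it as polyphosphate in the vacuole (Vtc1, Vtc3, Vtc4) or lower low-affinity uptake (Spl2).

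The study sequenced polyA RNA from 3 haploid strains in 2 media, in 3 replicates each, giving 18 libraries. It asked how cells that carry more active forms of Hcm1, a forkhead transcription factor of the cell cycle, express genes during long exposure to lithium. All strains were *MATa*, BY4741 background, with his3delta1 ura3delta0 leu2delta0 lys2delta0, a chromosomal *HCM1* driven by the galactose-inducible *GAL1* promoter and tagged with 3HA, and a GFP gene driven by the *TEF* promoter on chromosome VI. Each carried a pRS316 centromeric plasmid expressing 3V5-tagged *HCM1* from its own promoter, as wild type (WT), as *hcm1-3N*, with 3 alanine substitutions that stabilise the protein, or as *hcm1-8E*, in which each of 8 CDK sites of the transactivation domain became a pair of glutamic acids that mimic phosphate. Starter cultures without uracil grew in galactose, which kept the chromosomal copy on in every strain, and were moved to 2% dextrose to shut it off, with no LiCl (control) or with 150 mM LiCl. Cultures were diluted after 24 hours and collected at 40 hours in logarithmic growth. The replicates were described as biological, the labels do not say which cultures were separate, and p-values measure the spread between these libraries.

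The libraries held 18816441 to 21851012 counted fragments. The labelled *MATa* haploid state was checked against 6 a-specific or haploid genes and 6 alpha-specific or sporulation genes. The a-factor genes *MFA1* and *MFA2* and the alpha-factor receptor *STE2* were abundant, with mean *STE2* levels of 377 to 430 TPM (a level corrected for gene length and scaled to a fixed total per library) over the 6 groups. *MF(ALPHA)1*, which encodes alpha-factor, was at mean levels of 1.97 to 32.3 TPM, and *STE3* and the sporulation genes *SPS1*, *SPO13* and *NDT80* were low in all groups. Group means were 1.84 to 3.54 TPM for *MF(ALPHA)2*, 19.5 to 29.5 for *STE6*, 59.4 to 73.3 for *BAR1* and 63.7 to 86.7 for *RME1*. In LiCl 1 of 6 genes of each list rose in WT and in *hcm1-3N* (*MFA2* and *MF(ALPHA)1*), and *STE3* alone fell in *hcm1-8E*. Whether these differences share anything with those of the phosphate genes was not tested. The 8E LiCl replicate 2 library stood apart for *PHO89*, and libraries numbered 1 stood apart for *PHO84*, *SPL2* and *VTC3*, so results that rest on them are given with and without them.

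The PHO pathway reads its promoters through a short motif, CACGTG, or the weaker CACGTT, and the sites of the members that carry the results are shown to let a reader place them. Both strands of the 500 bases before each start codon were searched in the RefSeq R64 genome. CACGTG was found in 9 of 10 members and in 6.23% of 6000 upstream windows of the same length. CACGTT was found in 7 of 10 members and in 16.0% of all windows, and every member held at least 1 of these motifs, against 21.0% of all windows. No matches overlapped. *PHO8* was the member with only a CACGTT site in these 500 bases, and bases farther upstream were not searched. Since PHO genes are known as Pho4 targets, this describes the members and is no finding of these data. In the lines below each sequence runs 5′ to 3′ toward the start codon on the coding strand, with the motif in capitals. AACGTG is CACGTT read on the other strand.
PHO84: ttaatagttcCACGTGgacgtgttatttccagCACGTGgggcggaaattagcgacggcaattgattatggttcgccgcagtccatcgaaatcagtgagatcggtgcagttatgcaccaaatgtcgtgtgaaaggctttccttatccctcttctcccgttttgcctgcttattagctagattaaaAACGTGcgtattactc
PHO89: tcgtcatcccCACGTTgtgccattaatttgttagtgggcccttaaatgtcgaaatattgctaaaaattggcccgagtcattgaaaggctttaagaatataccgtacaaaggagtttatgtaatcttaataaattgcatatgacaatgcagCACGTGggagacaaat
PHO5: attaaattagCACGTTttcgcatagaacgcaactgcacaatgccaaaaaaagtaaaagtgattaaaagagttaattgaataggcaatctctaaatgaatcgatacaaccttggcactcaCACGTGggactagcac
PHO8: catatggagaAACGTGagattgaagt
SPL2, farthest site: tatttttgctCACGTGaccgacaagg
SPL2, nearest site: tcactgcagcCACGTGcctagatcta

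In R64 these windows lie on the minus strand at chrXIII:26047-26246 (*PHO84*), chrII:798830-798995 (*PHO89*), chrII:431189-431323 (*PHO5*), chrIV:1420615-1420640 (*PHO8*), and chrVIII:375446-375471 and chrVIII:375116-375141 (*SPL2*). The *PHO84* sites began 436, 414 and 262 bases before the start codon, and those of *PHO5* 362 and 253 bases before it. *SPL2* held 4 CACGTG sites, at 361, 147, 90 and 31 bases, more than any other member. The calcineurin-responsive motifs GNGGCGCA and GNGGCTCA, bound by Crz1, were searched in the same way because calcineurin acts in the response to lithium. They were found in 0 of 10 members, and in 1.88% and 1.92% of all windows. This says only that those letters are not in these windows.

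Across all libraries the members spanned a wide range of levels. *VTC1*, a membrane subunit of the vacuolar polyphosphate polymerase, was the highest with a mean of 301 TPM, at the 93.1 percentile of the listed genes. The vacuolar alkaline phosphatase gene *PHO8* had 74.5 TPM, the polymerase catalytic subunit gene *VTC4* 44.4 TPM and the related subunit gene *VTC3* 24.4 TPM. The acid phosphatase gene *PHO5* followed with 10.1 TPM. The sodium-coupled transporter gene *PHO89* (4.32 TPM), the acid phosphatase genes *PHO12* (4.07 TPM) and *PHO11* (2.7 TPM) and *SPL2* (3.13 TPM) lay close together, and their ranges over the 18 libraries overlapped. *PHO84*, which encodes the high-affinity phosphate transporter and is among the genes most strongly induced by phosphate starvation, was the lowest with 1.69 TPM, at the 12.1 percentile. In R64 the coding regions, none with an intron, lie at chrII:796798-798522 (*PHO89*), chrIV:1418550-1420250 (*PHO8*), chrVIII:374654-375100 (*SPL2*), chrXVI:514511-517018 (*VTC3*) and chrX:411234-413399 (*VTC4*) on the minus strand, and at chrI:225460-226863 (*PHO11*), chrVIII:552099-553502 (*PHO12*) and chrV:302806-303195 (*VTC1*) on the plus strand. The members were therefore read at low expression for the uptake, acid phosphatase and *SPL2* genes, with 21 to 65 fragments per library at *SPL2* and 23 to 268 at *PHO84*, and at moderate to high expression for the vacuolar genes.

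**Figure D1:**
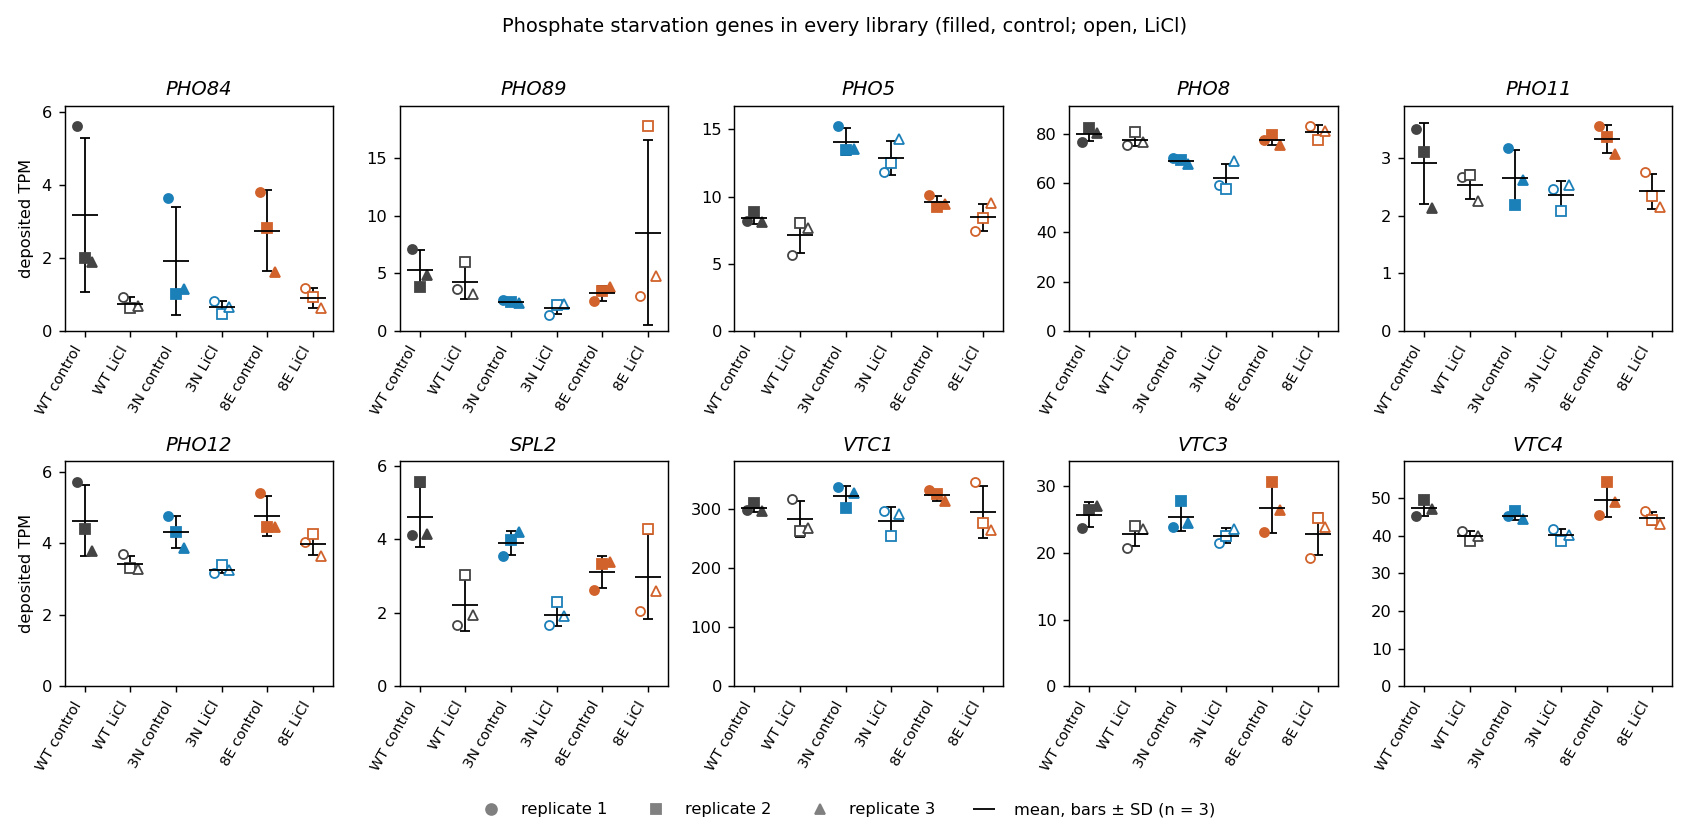
Deposited TPM (linear axes from 0) of the 10 members in each of the 18 libraries by strain and medium, with the mean ± SD (n = 3) per group and a marker shape per replicate number. *PHO84* was lower in LiCl in every strain, *PHO5* was higher in 3N than in WT or 8E, and *PHO89* had 1 library at 17.8 TPM.

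The comparison of LiCl with control medium asked whether these genes moved in chronic lithium stress in each strain. The lower-abundance members led: the *PHO84* level was 4.09-fold lower in WT and 3.26-fold lower in *hcm1-8E*, and *SPL2* was 2.04-fold lower in WT and 2.00-fold lower in *hcm1-3N*. No member passed the test as higher in LiCl in any strain. *PHO84*, *SPL2* and *PHO12* fell in WT (3 of 10 members), *SPL2* in *hcm1-3N* (1 of 10) and *PHO84*, *PHO11* and *VTC4* in *hcm1-8E* (3 of 10). Tests used edgeR's quasi-likelihood model over all 18 libraries with Benjamini-Hochberg adjustment over all 6239 genes. Of all genes tested, 13.9% were lower and 16.5% higher in WT, 5.18% lower and 5.16% higher in *hcm1-3N*, and 12.5% lower and 17.1% higher in *hcm1-8E*. Against those shares, the members' counts were about 30%, 10% and 30% lower and 0 higher, counted over only 10 genes. The median member log2 fold change was -0.21, -0.20 and -0.28 for WT, *hcm1-3N* and *hcm1-8E*, where the median of all genes was 0.02, 0.01 and 0.03. In bulk RNA, fewer cells expressing a gene and less RNA per cell cannot be told apart.

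Libraries that carried the same replicate number deviated together, and a fit with the replicate number as a block changed several of these calls. With the block, 4 members fell in WT (*VTC4* added), 3 in *hcm1-3N* (*PHO84* and *PHO12* added) and 6 in *hcm1-8E* (*PHO5*, *PHO12* and *VTC3* added), and 0 rose. The same fit called 23.0% of all genes lower and 26% higher in WT, 18% lower and 20.1% higher for *hcm1-3N*, and 21.7% lower and 26.4% higher for *hcm1-8E*, so the shares of all genes also grew.

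*PHO84* was the member with the most negative fold change in each strain. Its level in WT control libraries was 5.60, 1.99 and 1.90 TPM (replicates 1, 2 and 3) and in WT LiCl libraries 0.94, 0.62 and 0.678 TPM. In *hcm1-3N* the control values were 3.63, 1.01 and 1.13 TPM and the LiCl values 0.822, 0.459 and 0.646 TPM. In *hcm1-8E* they were 3.82, 2.81 and 1.63 TPM in control and 1.17, 0.934 and 0.614 TPM in LiCl. Every control library lay above every LiCl library of the same strain, and replicate 1 was the highest of its group in all 6 groups. The log2 fold change was -2.03 (SE 0.53, 95% interval -3.17 to -0.89) in WT, with an adjusted p of 0.0106, a level 4.09-fold lower. It was -1.71 (SE 0.53, interval -2.83 to -0.58, adjusted p = 0.0258) in *hcm1-8E* and -1.59 (SE 0.54, interval -2.75 to -0.42, adjusted p = 0.0693) in *hcm1-3N*, where it missed the threshold and passed with the replicate number as a block (-1.47, adjusted p = 0.00165). All 9 pairs of libraries with the same number were lower in LiCl. Pairs and overlap of groups, here and below, were read in TPM. How many of all genes separate in these ways was not counted.

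Since *PHO84* was highest in the libraries numbered 1, the fit was repeated with replicates 2 and 3 only, an alternative chosen after seeing the data. The log2 fold change was then -1.60, -0.95 and -1.65 for WT, *hcm1-3N* and *hcm1-8E* (edgeR adjusted p = 0.000351, 0.0331 and 0.000219). Leaving out WT control replicate 1 alone gave -1.39 in WT with an adjusted p of 0.0541. In *hcm1-8E* the adjusted p was 0.0879 without control replicate 1, 0.0651 without control replicate 2, 0.0603 without LiCl replicate 2 and 0.0866 without LiCl replicate 3, with the direction kept.

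The *PHO84* value has a limit of annotation. The gene occupies positions 24037 to 25800 of chromosome XIII in R64 on the minus strand, with no intron, and an antisense RNA annotated as YNCM0001W runs opposite it from 23564 to 26578, covering all 1764 bases. The libraries were prepared in a strand-specific way, but whether counting used the strand is not stated, so it is not known whether fragments from this antisense RNA were counted as *PHO84*.

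*SPL2*, whose product slows low-affinity phosphate uptake by the Pho87 and Pho90 transporters, fell in WT and *hcm1-3N*. Control and LiCl libraries had 4.13, 5.56 and 4.16 TPM against 1.66, 3.02 and 1.95 TPM in WT, and 3.54, 3.98 and 4.19 TPM against 1.66, 2.29 and 1.91 TPM in *hcm1-3N*. Neither pair of groups overlapped. In *hcm1-8E* the values were 2.62, 3.33 and 3.37 TPM in control and 2.06, 4.27 and 2.59 TPM in LiCl, and these groups did overlap. The log2 fold change was -1.03 (SE 0.27, adjusted p = 0.0108) in WT, -1.0 (SE 0.28, adjusted p = 0.0353) in *hcm1-3N* and -0.18 (SE 0.27, interval -0.75 to 0.40, adjusted p = 0.649) in *hcm1-8E*, by edgeR.

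The difference between the *SPL2* responses of *hcm1-8E* and WT was 0.85 on the log2 scale (interval 0.03 to 1.67) with an adjusted p of 0.465 in edgeR, so the strains were not shown to differ. Without 8E LiCl replicate 2, the library in which *SPL2* was highest among the LiCl libraries, that difference was 0.50 (adjusted p = 0.757). The WT decrease kept an adjusted p of 0.00589 to 0.0446 whichever of its 6 libraries was left out. The *hcm1-3N* decrease missed the threshold in 4 of its 6 such fits, without control replicate 2 (0.105), control replicate 3 (0.113), LiCl replicate 1 (0.129) or LiCl replicate 2 (0.0674), and its log2 fold change stayed between -1.13 and -0.88. *SPL2* was lowest in replicate 1 in all 6 groups, the reverse of *PHO84*. With replicates 2 and 3 only, its log2 fold change was -0.98 in WT and -0.96 in *hcm1-3N* (edgeR adjusted p = 0.00897 and 0.0215).

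**Figure D2:**
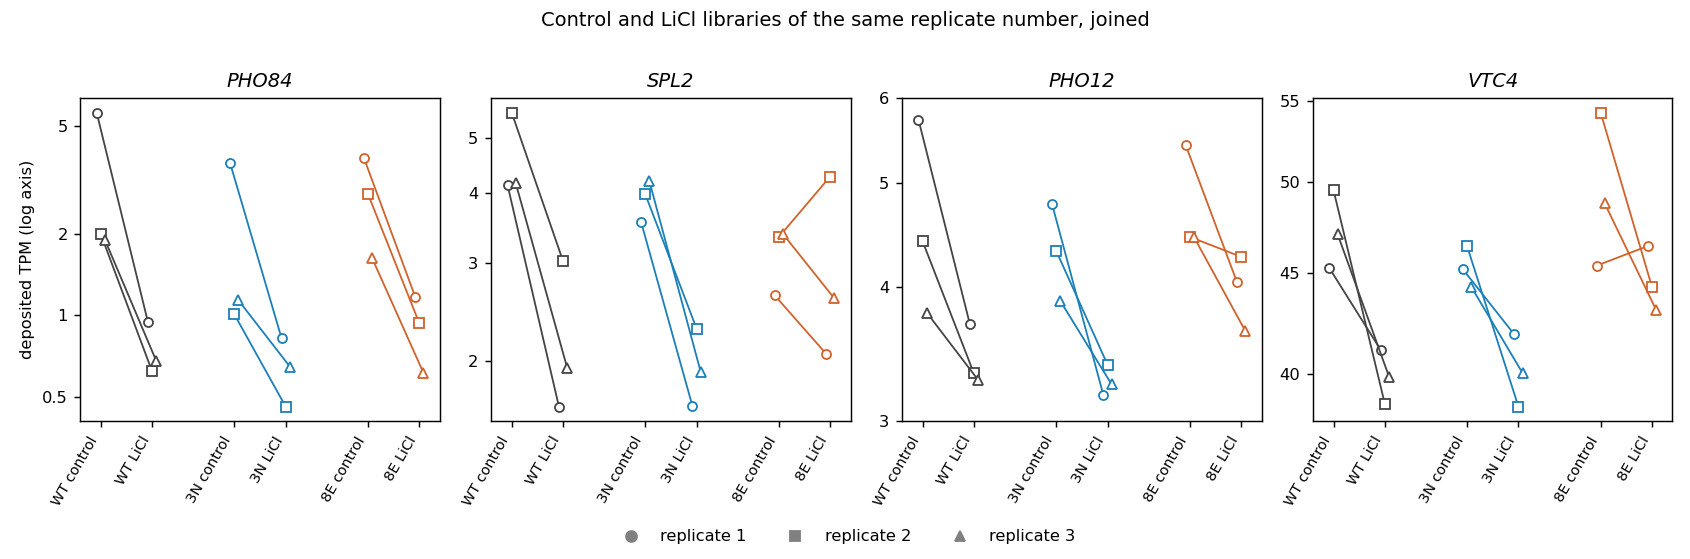
Deposited TPM (log axes) of *PHO84*, *SPL2*, *PHO12* and *VTC4*, with the control and LiCl libraries of the same strain and replicate number joined. *PHO84* and *PHO12* were lower in LiCl in 9 of 9 joined pairs, and *SPL2* and *VTC4* in 8 of 9. Members not drawn ran from 5 of 9 (*PHO89*) to 9 of 9 (*VTC3*), and the share over all genes was not counted.

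*PHO89* differed from its fellow transporter *PHO84*. Its WT levels were 7.16, 3.84 and 4.90 TPM in control and 3.62, 5.98 and 3.24 TPM in LiCl, and its *hcm1-3N* levels 2.64, 2.49 and 2.44 TPM against 1.41, 2.25 and 2.33 TPM. In *hcm1-8E* they were 2.57, 3.45 and 3.82 TPM in control and 3.08, 17.8 and 4.74 TPM in LiCl. The value of 17.8 TPM, from 819 fragments in 8E LiCl replicate 2, was 2.48 times the next highest *PHO89* value of the series. The log2 fold change in *hcm1-8E* was 1.26 (SE 0.50, adjusted p = 0.0701 in edgeR), and 0.15 (adjusted p = 0.769) without that library. It passed with DESeq2 (adjusted p = 0.0353) and without 8E LiCl replicate 1 (0.0155) or 8E LiCl replicate 3 (0.0438), fits that all held replicate 2. In WT and *hcm1-3N* the changes were -0.27 and -0.34, with intervals from -1.32 to 0.78 and from -1.44 to 0.76, so a 2-fold decrease could not be told from no change. The *hcm1-3N* LiCl values lay below all 3 of its control values. In LiCl *PHO89* was lower in *hcm1-3N* than in *hcm1-8E* by a log2 fold change of -1.97 (adjusted p = 0.0540), which was -0.85 (adjusted p = 0.279) without 8E LiCl replicate 2 and passed with DESeq2 (0.00290) and without 8E LiCl replicate 1 (0.0111) or replicate 3 (0.0398).

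*PHO11* and *PHO12* encode secreted acid phosphatases and are near-identical copies at the ends of chromosomes I and VIII. Their coding sequences differed at 4 of 1404 bases (99.7% identity), and 75.2% of the 100-base windows of *PHO11* occurred unchanged in *PHO12*. Fragments had to map with a quality above 20 to be counted, so fragments from the shared stretches may be lost or split, and both genes are reported as uncertain. The 60 bases that hold the most differences, coding bases 1209 to 1268, are shown with the differing bases in capitals.
PHO11: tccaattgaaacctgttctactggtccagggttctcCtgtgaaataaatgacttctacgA
PHO12: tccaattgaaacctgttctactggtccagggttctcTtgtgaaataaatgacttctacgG

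*PHO12* had 5.73, 4.41 and 3.79 TPM in WT control against 3.70, 3.32 and 3.28 TPM in WT LiCl, a log2 fold change of -0.40 (SE 0.14, adjusted p = 0.0453 in edgeR). Its control and LiCl libraries did not overlap in any of the 3 strains. In *hcm1-3N* and *hcm1-8E* the changes were -0.41 and -0.37, with adjusted p of 0.0686 and 0.0580, and both passed with the replicate block (-0.41, adjusted p = 0.0194, and -0.37, adjusted p = 0.0220). The WT call was lost without control replicate 1 (-0.26, adjusted p = 0.161), control replicate 2 (0.0566), LiCl replicate 2 (0.106) or LiCl replicate 3 (0.106), and with replicates 2 and 3 only (-0.33, adjusted p = 0.0759). *PHO11* fell in *hcm1-8E*, from 3.55, 3.37 and 3.07 TPM to 2.76, 2.35 and 2.15 TPM (-0.57, SE 0.18, adjusted p = 0.0294), and its groups overlapped in the other strains. That call was lost without 8E control replicate 1 (0.0792), control replicate 2 (0.0788), LiCl replicate 2 (0.0744) or LiCl replicate 3 (0.0979). With the counts of both copies summed, which does not depend on how fragments were split, the change was -0.30 in WT (adjusted p = 0.118), -0.32 in *hcm1-3N* (0.138) and -0.45 in *hcm1-8E* (0.0254), by edgeR.

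The vacuolar members had small fold changes. *VTC4*, which encodes the subunit that makes polyphosphate, had 45.4, 54.3 and 48.8 TPM in *hcm1-8E* control and 46.4, 44.3 and 43.1 TPM in *hcm1-8E* LiCl, and these groups overlapped. Its log2 fold change there was -0.26 (SE 0.08, adjusted p = 0.0268 in edgeR), and the call was lost without control replicate 2 (0.139), control replicate 3 (0.0615), LiCl replicate 2 (0.0682) or LiCl replicate 3 (0.0830). In WT it had 45.2, 49.6 and 47.1 TPM in control and 41.1, 38.6 and 39.9 TPM in LiCl, without overlap (-0.21, adjusted p = 0.0582, with the block 0.0441). *VTC3* had a value of -0.34 in *hcm1-8E* (adjusted p = 0.0539, with the block 0.00212) and was lower in LiCl in all 9 pairs of the same number, though its groups overlapped except in *hcm1-3N*. The *hcm1-8E* value passed with replicates 2 and 3 only (-0.36, adjusted p = 0.0104 in edgeR) and without 8E control replicate 1 (-0.44, 0.0310) or 8E LiCl replicate 2 (-0.42, 0.0453), and also with DESeq2 (0.0248), DESeq2 size factors (0.0439) and no filter (0.0413). *VTC1* had log2 fold changes of -0.06, -0.21 and -0.24 and *PHO8* of -0.01, -0.16 and -0.05 in the order WT, *hcm1-3N*, *hcm1-8E*, and none passed. The intervals for *PHO8* bound its change to between -0.36 and 0.19 over the 3 strains. *PHO5* had -0.21, -0.14 and -0.30, with WT libraries that did not overlap, and only the *hcm1-8E* value passed with the block (-0.31, adjusted p = 0.0489).

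**Figure D3:**
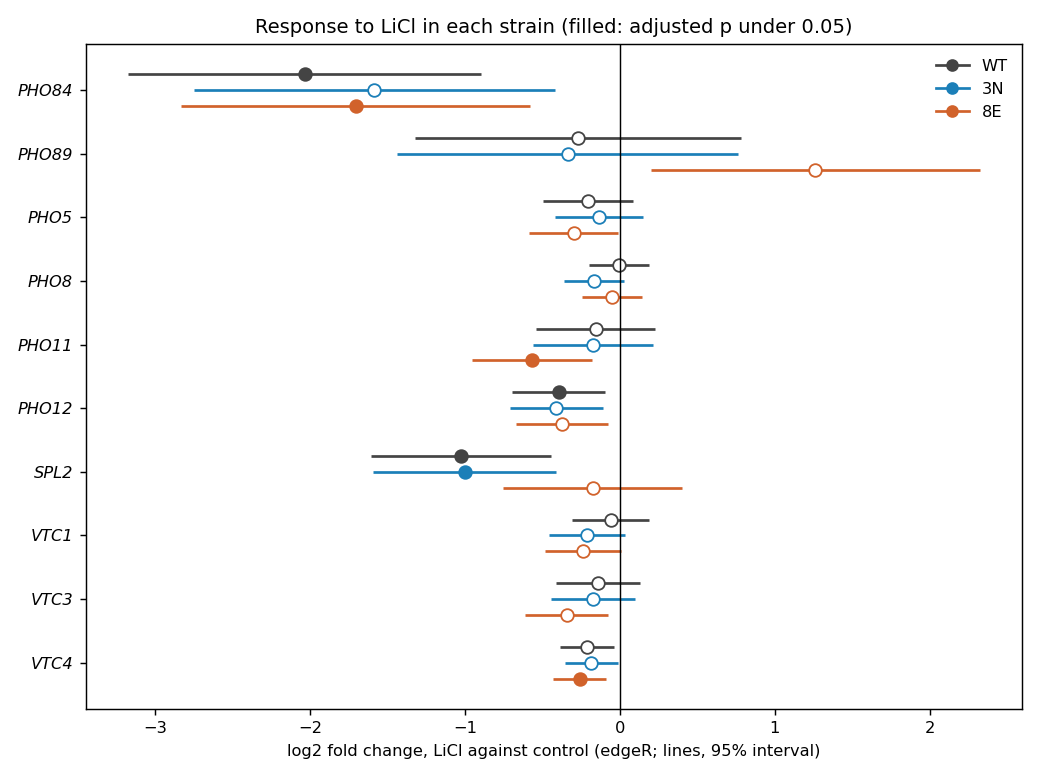
Log2 fold change of each member in LiCl against control (x axis) in WT, 3N and 8E, with 95% intervals, filled where the edgeR adjusted p was under 0.05. *PHO84* lay at -2.03, -1.59 and -1.71, and the vacuolar genes *PHO8*, *VTC1*, *VTC3* and *VTC4* all lay between -0.35 and 0.

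The LiCl responses of the strains were compared directly. For the 3 differences between strains, 0 of 10 members passed, and 0% of all 6239 genes did in edgeR (705, 643 and 561 genes had an unadjusted p under 0.05). The fit with the block called 0.641%, 0.337% and 0.192% of all genes for *hcm1-3N* against WT, *hcm1-8E* against WT and *hcm1-3N* against *hcm1-8E*. No alternative called a member. At an unadjusted p under 0.05 there were 0 members for *hcm1-3N* against WT, 2 for *hcm1-8E* against WT (*PHO89* and *SPL2*) and 1 for *hcm1-3N* against *hcm1-8E* (*PHO89*). For *PHO84* the responses differed by 0.45 (*hcm1-3N* minus WT) and 0.33 (*hcm1-8E* minus WT) on the log2 scale, with intervals of -1.17 to 2.07 and -1.26 to 1.91, so these data allow large differences as well as none.

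Between strains in the same medium, *PHO5* was the member that differed. *PHO5* encodes the main secreted acid phosphatase, the classical reporter of the PHO pathway. It had 15.2, 13.5 and 13.6 TPM in *hcm1-3N* control, against 8.2, 8.88 and 8.09 TPM in WT and 10.1, 9.25 and 9.46 TPM in *hcm1-8E*. In LiCl the values were 11.8, 12.5 and 14.3 TPM in *hcm1-3N*, 5.63, 8.02 and 7.67 TPM in WT and 7.46, 8.38 and 9.49 TPM in *hcm1-8E*. Every *hcm1-3N* library lay above every library of the other strains, in both media. On the log2 scale, WT minus *hcm1-3N* was -0.80 in control (SE 0.13, adjusted p = 0.00359) and -0.88 in LiCl (SE 0.13, adjusted p = 0.0122), a level 1.75-fold and 1.83-fold higher in *hcm1-3N*.

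*PHO5* in *hcm1-3N* also exceeded *hcm1-8E* in LiCl by 0.72 (SE 0.13, adjusted p = 0.00792, 1.65-fold). In control the difference was 0.56 (SE 0.13, interval 0.27 to 0.84) with an adjusted p of 0.130, and 0.0257 with the block. It was thus the 1 of 10 members called in WT against *hcm1-3N* in control and in LiCl and in *hcm1-3N* against *hcm1-8E* in LiCl, where 7.68%, 0.721% and 3.06% of all genes were called in either direction. In *hcm1-3N* against *hcm1-8E* in control, 0 members and 0.0641% of all genes were called, and with the block 1 member and 3.73% of all genes. WT against *hcm1-8E* called 0 members in either medium (0 also at an unadjusted p under 0.05), where 0.0641% of all genes passed in control and 0.0321% in LiCl. Without 1 library at a time, the control difference from WT passed in all 6 fits and the LiCl difference from *hcm1-8E* in all 6. The LiCl difference from WT passed in 5 of 6, the exception being WT LiCl replicate 1 (-0.75, adjusted p = 0.0515). When only the groups compared were fitted, neither LiCl difference passed in edgeR. WT minus *hcm1-3N* was then -0.89 (adjusted p = 0.393) and *hcm1-3N* minus *hcm1-8E* 0.74 (adjusted p = 0.297).

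*PHO5* lies at positions 429548 to 430951 of chromosome II beside *PHO3*, a constitutive acid phosphatase gene repressed by thiamine. The *PHO3* coding sequence is 86.5% identical to that of *PHO5*. They share no 100-base window, but their longest identical run was 98 bases. Whether *PHO3* fragments were counted as *PHO5* was not tested. *PHO3* was much more abundant, with mean levels of 237 to 424 TPM. *PHO3* was examined after the *PHO5* values were seen. *PHO3* in WT minus *hcm1-3N* was -0.05 in control (interval -0.61 to 0.50) and 0.16 in LiCl (interval -0.40 to 0.71). In LiCl against control *PHO3* rose in WT by 0.85 on the log2 scale (adjusted p = 0.0238 in edgeR), while the *PHO5* value there was -0.21.

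*PHO8* was also lower in *hcm1-3N* when read in TPM, with 67.9 to 70.1 TPM in control and 57.7 to 68.8 TPM in LiCl. All libraries of the other strains had 75.4 to 83.0 TPM, without overlap. In CPM (counts scaled to library size with TMM), 3N LiCl replicate 3 (158.1) lay above 8E LiCl replicate 2 (155.6), so these LiCl groups overlapped. The 3N control libraries (150.3 to 154.5 CPM) still lay below all libraries of the other strains. The *PHO8* difference did not pass in edgeR (WT minus *hcm1-3N* 0.15, adjusted p = 0.341, in control, and 0.31, adjusted p = 0.164, in LiCl). In *hcm1-3N* against *hcm1-8E* in LiCl it was -0.27 (adjusted p = 0.143), and limma on log2(TPM + 1) gave -0.38 (adjusted p = 0.00746). Without 3N LiCl replicate 3, edgeR gave adjusted p of 0.0126 there and 0.0246 for WT against *hcm1-3N* in LiCl. The remaining members did not pass between strains in the fit of all libraries. For *PHO84*, WT minus *hcm1-3N* in control was 0.66 (interval -0.41 to 1.72).

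The other genes of phosphate homeostasis were followed in 4 lists of 27 genes, all tested. In WT 2 were higher and 4 lower in LiCl, in *hcm1-3N* 2 higher and 1 lower, and in *hcm1-8E* 3 higher and 6 lower, and with the replicate block 6 and 7, 5 and 5, and 4 and 13. Of all genes, 16.5% were higher and 13.9% lower in WT, 5.16% and 5.18% in *hcm1-3N* and 17.1% and 12.5% in *hcm1-8E*, and with the block 26% and 23.0%, 20.1% and 18%, and 26.4% and 21.7%. Counted over 27 genes, nothing is read from the difference between these shares. Of the 8 genes of signalling and transcription, *PHO85* and *PHO92* passed in all 3 strains. *PHO85*, the kinase that restrains Pho4, fell from 78.0, 103 and 91.0 TPM to 35.8, 52.1 and 49.8 TPM in WT, a log2 fold change of -0.95 (SE 0.17, adjusted p = 0.00103). The *PHO85* change was -0.60 (adjusted p = 0.0403) in *hcm1-3N* and -0.66 (adjusted p = 0.0108) in *hcm1-8E*, without overlap of media in any strain.

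*PHO92*, whose product binds methylated mRNA and lowers *PHO4* mRNA, rose from a low level. *PHO92* had 1.12, 0.913 and 0.949 TPM in WT control and 2.57, 2.30 and 2.05 TPM in WT LiCl (log2 fold change 1.24, SE 0.24, adjusted p = 0.00159), and its change was 0.80 (adjusted p = 0.0429) in *hcm1-3N* and 0.90 (adjusted p = 0.0141) in *hcm1-8E*. The *hcm1-3N* calls of both genes were lost in fits that left out 1 library. *PHO92* missed the threshold without any 1 of the 6 (adjusted p 0.0644 to 0.130). *PHO85* missed it without control replicate 2 (0.130), control replicate 3 (0.128), LiCl replicate 1 (0.137) or LiCl replicate 2 (0.0791).

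*PHO2*, the partner of Pho4, fell in WT (-0.83, adjusted p = 0.00480) and *hcm1-8E* (-0.69, adjusted p = 0.0137), and *PHO4* itself rose in *hcm1-8E* (1.04, adjusted p = 0.00397), from a mean of 9.45 to 20.9 TPM. With the block *PHO2* fell and *PHO4* rose in all 3 strains. *VIP1*, which makes inositol pyrophosphates, fell in the same strains (-0.28 and -0.39), and the cyclin gene *PHO80* fell in *hcm1-8E* (-0.30). The *PHO80* call was lost in 4 of the 6 fits that left out 1 library, without 8E control replicate 2 or 3 or 8E LiCl replicate 2 or 3, with adjusted p up to 0.107 in edgeR. The *PHO2* call in *hcm1-8E* was lost without 8E control replicate 2 (0.0720) or 3 (0.0551). *PHO81* did not pass in any strain. Of the 5 other phosphate transport genes, 0 passed in any strain in edgeR (2, 1 and 1 had an unadjusted p under 0.05 in WT, *hcm1-3N* and *hcm1-8E*). With the block *PHO90* and *PHO91* rose and *PHO86* fell in WT, *PHO91* fell in *hcm1-3N*, and *PHO87* and *PHO86* fell in *hcm1-8E*. Of 6 polyphosphate genes, *VTC2* fell (-0.26) and the exopolyphosphatase gene *PPX1* rose (0.61) in *hcm1-8E*, and 0 passed in the other strains. The *VTC2* call was lost without 8E control replicate 2 (0.108) or 3 (0.0625) or 8E LiCl replicate 1 (0.0561). With the block *PPN2* and *PPX1* also rose in *hcm1-3N* and *PPN1* in *hcm1-8E*, all of them polyphosphatase genes. *VTC5*, a polymerase subunit gene, had -1.05, -0.83 and -0.90 in WT, *hcm1-3N* and *hcm1-8E* and passed in all 3 only with the block (adjusted p = 0.000218, 0.00172 and 0.00109). Of 8 other starvation genes, *GDE1*, which splits glycerophosphocholine, fell in WT (-0.46), *HOR2*, a glycerol-phosphate phosphatase gene also known to respond to salt, rose in WT (0.70) and *hcm1-3N* (0.45), and *PHO13* fell in *hcm1-8E* (-0.35). The *HOR2* call in *hcm1-3N* passed in 1 of the 6 fits that left out 1 library, the one without 3N LiCl replicate 3, and its value was 0.23 (adjusted p = 0.260 in edgeR) without 3N LiCl replicate 1 and 0.23 (0.138) with replicates 2 and 3 only. It was also lost with limma (0.0772) and with no filter (0.0634). With the block *PHM7* also rose and *CTF19* fell in WT, and *DIA3* fell in *hcm1-3N*. In *hcm1-8E* the block called 5 of these 8 genes lower, *PHO13* with *PHM6*, *PHM8*, *CTF19* and *DIA3*, and 0 higher.

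**Figure D4:**
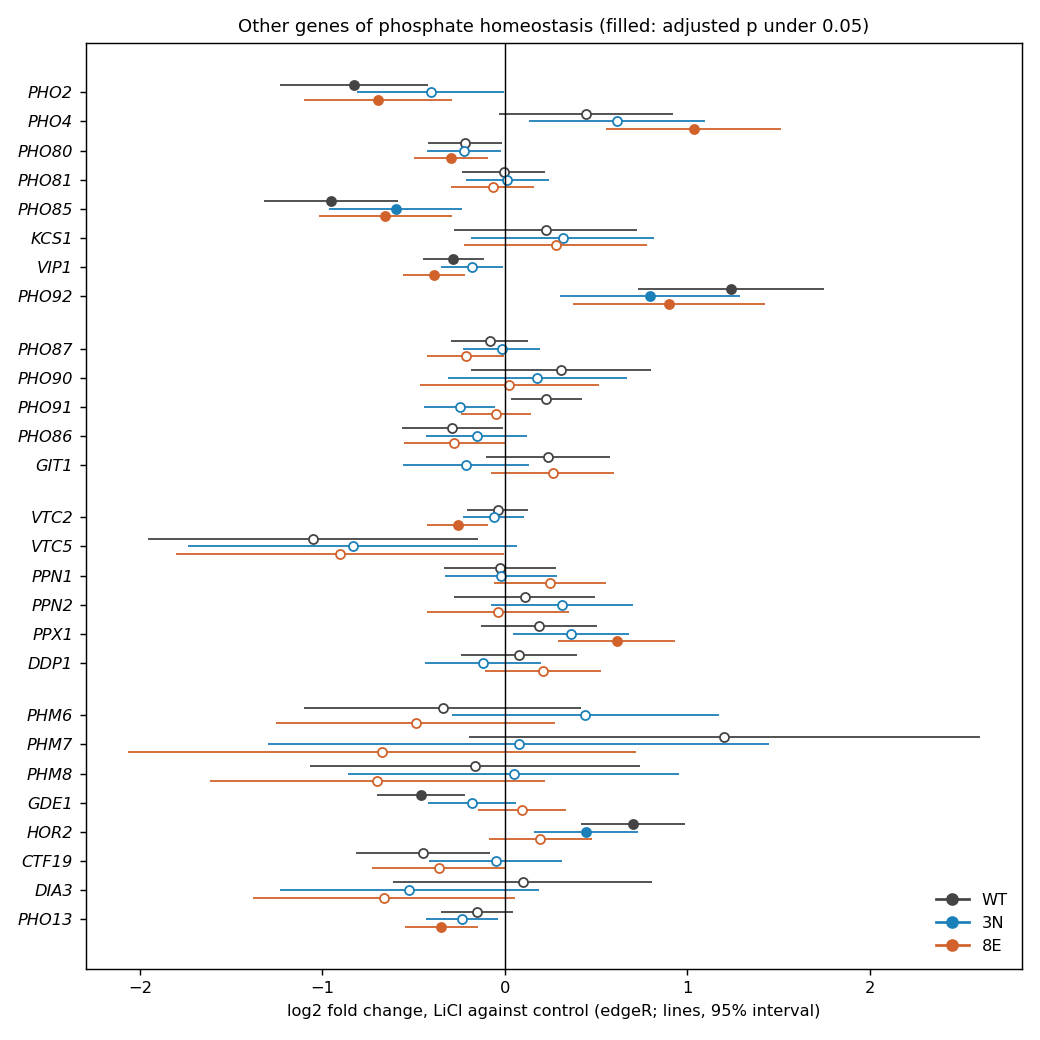
Log2 fold change in LiCl against control (x axis, 95% intervals) of 27 other phosphate genes in WT, 3N and 8E, grouped as signalling and transcription, transport, polyphosphate and other starvation genes, filled where the edgeR adjusted p was under 0.05. *PHO85* was below 0 and *PHO92* above 0 in all 3 strains, and the 5 transport genes held no filled point.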

How the data were processed

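Per the authors' methods, fragments of strand-specific libraries aligned to R64-1-1 (the aligner is not given in the sources used here) and mapped with a quality over 20 were assigned to exons by featureCounts, whose strand setting is not given. The authors deposited raw counts for 7126 genes and TPM values, corrected for length and library total, for 6754 genes. Deposited TPM gave levels and deposited counts gave tests. Counts of all 6 groups were fitted together in edgeR 4.0.16 (R 4.3.3) with TMM scaling, filterByExpr and robust quasi-likelihood, with adjusted p-values (Benjamini-Hochberg, threshold 0.05) over 6239 genes. DESeq2 1.42.0, DESeq2 size factors, limma 3.58.1 on log2(TPM + 1), no filter, a fit of only the groups compared, the replicate block and leaving out each library were alternatives. Replicates 2 and 3 only, and the block without 8E LiCl replicate 2, and likeness without that library, were added after seeing the data. The test scripts were tested on simulated data. Replicate numbers came from the library titles. Same-numbered libraries deviated together in every pair (correlation of deviations from group means 0.237 to 0.890), although no source says that such libraries were grown together. The main tests, and adjusted p-values given without mention of the block, did not use the number as pairing. The block fits did. The members, lists and naming rule (all members, list genes past the threshold in all 3 strains, others as values, 3 most similar genes) were chosen with earlier results of these data known. *VTC5*, *PPN2* and *HOR2* were matched through RefSeq.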

Additional observations from a re-analysis of the deposited data

How the results depend on the processing

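No called member or pathway gene changed direction under an alternative. The number of members called in LiCl against control was 3, 1 and 3 for WT, *hcm1-3N* and *hcm1-8E*. It was 3 in *hcm1-3N* and 6 in *hcm1-8E* with the replicate block and also with DESeq2, 5 in *hcm1-8E* with DESeq2 size factors, 0 in *hcm1-8E* with limma on TPM, and 0 in *hcm1-3N* and 1 in *hcm1-8E* when only the groups compared were fitted. With replicates 2 and 3 only it was 2 and 5. Leaving out 1 library gave 2 to 4, 0 to 2 and 0 to 5 for these strains. The 6 members called in *hcm1-8E* were not the same with the block and with DESeq2. Those of the block all fell and included *PHO5*. Those of DESeq2 did not include *PHO5* and included *PHO89*, which rose (1.25, adjusted p = 0.0353). Between strains, the only-groups fit gave 2 members for WT against *hcm1-3N* in control and 0 in LiCl, and 0 where *hcm1-3N* and *hcm1-8E* were compared in LiCl. Replicates 2 and 3 only gave 2 for WT against *hcm1-3N* and, in control, 2 where *hcm1-3N* was compared with *hcm1-8E*. The latter was 1 with the block and 1 with DESeq2, and the LiCl comparison of *hcm1-3N* with *hcm1-8E* was 2 with DESeq2 and 2 with limma. Leaving out 1 library gave 0 to 2 for WT against *hcm1-3N* in LiCl and 1 to 2 for *hcm1-3N* with *hcm1-8E* there. The causes were not tested. With the block *VTC4* was also called in WT (-0.21, adjusted p = 0.0441 in edgeR). The block changed no other member's call. Levels from counts over RefSeq lengths were 1.09 to 1.12 times the deposited TPM. Depth limits *SPL2* and *PHO84* most.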

Other observations

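The genes whose log2 CPM followed a member most closely over the 18 libraries were found for *PHO84*, *PHO89* and *PHO5*, as a description. The points share libraries, media and replicate numbers. For *PHO84* they were *NUP42* (r = 0.934), *TIM23* (0.908) and *IAH1* (0.908), and within the 9 LiCl libraries r was 0.678, 0.863 and 0.776. After removing the mean of each replicate number, other genes led and these ranked 66, 181 and 87. For *PHO89* they were *AAD4* (0.855, 0.714 within control and 0.904 within LiCl), *BOP2* (0.839, 0.375 and 0.933) and *PIR5* (0.816, 0.966 and 0.829). Without 8E LiCl replicate 2, a setting chosen after seeing the data, r over 17 libraries was 0.802, 0.732 and 0.863, and they ranked 3, 13 and 1. For *PHO5* they were *YJR015W* (0.922), the kynureninase gene *BNA5* (0.901) and *YIR042C* (0.895), which remained the first 3 after removing the number means.

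Among the members, *PHO84* went most closely with *PHO12* (r = 0.898 over 18 libraries, 0.778 within control and 0.550 within LiCl) and *PHO11* (0.783). Its r with *PHO5* was -0.00194. *PHO84* and *SPL2* had 0.490 over all libraries, -0.455 within control, and 0.814 once the mean of each replicate number was removed. *VTC3* and *VTC4*, subunits of 1 complex, had 0.671 over all libraries, 0.890 within control, -0.503 within LiCl, and 0.791 once the number means were removed.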
